A study of Homo sapiens with 2 samples.

Results

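The 39 protein-coding HOX genes of the HOXA, HOXB, HOXC and HOXD clusters were followed in 1 Nanopore direct RNA library and 1 Illumina library. They were chosen by symbol and gene type in GENCODE release 44, and all 39 were matched by Ensembl identifier among the 58735 genes of each table. HOXA has 11 of them, HOXB 10, HOXC 9 and HOXD 9.

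HOX genes encode homeodomain transcription factors that give cells a position along the body axis. Genes of 1 cluster lie in the same order as the body regions they pattern, from the anterior genes at the 3′ end to the posterior genes at the 5′ end, and genes with the same number in different clusters are paralogues. The clusters are dense: transcripts of neighbouring HOX genes can share leader exons, and antisense long non-coding RNAs (lncRNAs) such as HOTAIRM1, HOTAIR and HOTTIP run between and across them. Adult epithelia, the mammary gland included, keep part of their HOX code, and Polycomb and Trithorax complexes hold HOX genes silent or active.

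Both libraries were made from matched polyadenylated RNA of MCF10a-Snail-ER cells, a derivative of the non-tumorigenic human mammary epithelial line MCF10a. The cells carry Snail, a repressor of epithelial genes, as a stable fusion to the estrogen receptor, and had been given 100 nM tamoxifen over 1 day, the treatment used to set off an epithelial-to-mesenchymal transition. The Nanopore library was a direct RNA library run on a MinION, in which RNA strands themselves are read. The Illumina library was prepared with a TruSeq stranded mRNA kit. There was 1 library per platform, and no library of untreated or parental cells was analysed here. The values therefore describe 1 line in 1 state, differences between libraries have no replicate check, and no response to tamoxifen can be read from them.

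In total 403235 counts were assigned by Nanopore and 191741714 by Illumina, 476 times as many. Scaled to a library total of 1000000 (CPM), each count stood for 2.48 CPM by Nanopore and 0.00522 CPM by Illumina, and a count of 0 was taken to allow up to 3 counts, or 7.44 CPM and 0.0156 CPM. The two-sided exact Poisson interval of a Nanopore count of 0 ends somewhat higher, at 9.15 CPM. All 7 basal mammary markers had counts in each library, KRT5 with 680 and 277508. All 4 mesenchymal markers also had counts in each. Luminal markers were mixed: KRT18 (113 and 61710 counts) and KRT8 (157 and 40083) were abundant, GATA3 (4 and 2479) and EPCAM (3 and 770) were lower, FOXA1 had 0 and 952, KRT19 1 and 88, and ELF5 was at 0 in both. By contrast, the leukocyte markers PTPRC (0 and 2 counts) and CD3E (0 and 0) were near or at 0. Of 3 fibroblast markers 1 had a Nanopore count and all 3 an Illumina count, COL1A1 with 946 (4.93 CPM). Of 2 endothelial markers 0 had a Nanopore count and both an Illumina count, PECAM1 with 973 (5.07 CPM), above the Illumina CPM of most of the 39 members. SNAI1 had 286 and 164973 counts, which do not separate the fusion transcript from the endogenous one.

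HOX transcripts were present but rare, and nearly all came from HOXA and HOXC. The members together took 73 Nanopore counts, or 181 CPM (95% Wilson interval 144 to 228), and 24495 Illumina counts, or 128 CPM (126 to 129). By Illumina 27 of the 39 genes had at least 1 count and 18 reached 1 CPM. By Nanopore 13 had a count, 7 had at least 3 and 3 had at least 10. All 13 were among the 27 seen by Illumina. The other 14 were seen by Illumina alone, and 12 were at 0 in both libraries. In bulk RNA such as this, fewer cells with a transcript and less of it per cell cannot be told apart. Intervals and floors here cover counting error only, because there was 1 library per platform. For Illumina they also leave out amplification, since amplified reads do not stand for separate molecules.

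The 26 members without a Nanopore count reached at most 4.14 CPM by Illumina, the level of HOXC11, which is under the Nanopore floor of 7.44 CPM. At their Illumina shares, all 26 together would have given 7.45 Nanopore counts. They were picked for a Nanopore count of 0, so this sum cannot be compared with what was seen. For any 1 of them at most 1.67 counts would have been given. A lower Nanopore level of a single gene was thus not detectable at this depth.

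**Figure D1:**
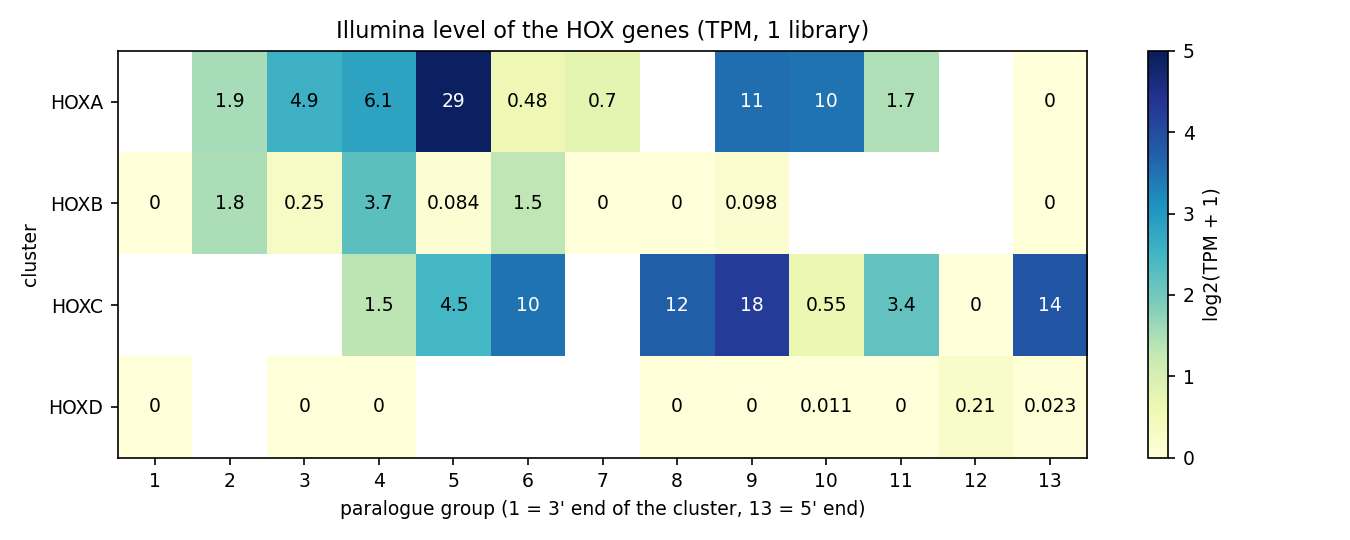
Illumina level of each HOX gene, arranged by cluster (rows) and paralogue group (columns, 1 at the 3′ end to 13 at the 5′ end). Numbers are TPM (counts per exonic length, scaled to a sum of 1000000) in the single Illumina library, the colour is log2(TPM + 1), and positions without a gene or not reported here are left white. HOXA and HOXC hold every gene above 4 TPM, led by HOXA5 at 28.6 TPM, and the HOXD row stays at or under 0.208 TPM.

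Levels are compared between genes as Illumina TPM, which divides the count by the union length of the annotated exons. HOXA summed to 70.6 TPM and HOXC to 64.2 TPM, against 7.50 TPM for HOXB and 0.243 TPM for HOXD. In shares of the Illumina HOX counts, HOXA held 50.9% (Wilson interval 50.3 to 51.5), HOXC 43.7% (43.1 to 44.3), HOXB 5.24% (4.97 to 5.53) and HOXD 0.180% (0.134 to 0.241). In the Nanopore counts the order of the leading clusters was the other way round: HOXC held 60.3% (48.8 to 70.7) and HOXA 37.0% (26.8 to 48.5). HOXB had 2.74% (0.755 to 9.45), and HOXD had 0 of 73 counts. That order depends on genes whose bodies contain other HOX genes, as described below. The grid of levels by cluster and paralogue group shows how the signal is placed along the clusters.

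The HOXA cluster (chromosome 7 on hg38, minus strand, 107.1 kb) was active along most of its length. HOXA5, which has roles in lung and mammary epithelium, was the most abundant HOX gene of the Illumina library, with 9 Nanopore counts (22.3 CPM) and 3481 Illumina counts (18.2 CPM, 28.6 TPM). It was close to the middle of the protein-coding genes seen by Illumina, with more counts than 51.4% of them. The next genes of the cluster were posterior ones. HOXA9, known from blood stem cells and leukaemia, had 4 and 2306 counts (9.92 and 12.03 CPM, 10.7 TPM). HOXA10, a regulator of the endometrium, had 2 and 2666 counts (4.96 and 13.9 CPM, 10.2 TPM).

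HOXA2 and HOXA3, of the anterior part, were lower. HOXA2, which patterns the second pharyngeal arch, had 0 and 315 counts (1.64 CPM by Illumina, 1.91 TPM). HOXA3, needed for thymus and parathyroid, had 10 and 1502 counts (24.8 and 7.83 CPM, 4.92 TPM). By TPM both were under the level of HOXA5, while the Nanopore count of HOXA3 was 1 above that of HOXA5.

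Around HOXA5 the levels differed from gene to gene. HOXA4, its 3′ neighbour, had 0 and 744 counts (3.88 CPM by Illumina, 6.08 TPM). HOXA6 and HOXA7, on its 5′ side, had no Nanopore count and 44 and 120 Illumina counts (0.484 and 0.703 TPM). HOXA11 had 1 and 327 counts (2.48 and 1.71 CPM, 1.73 TPM). HOXA13, the 5′ end gene that patterns digits and the genital tract, was at 0 in both libraries. A count of 0 allows up to 0.0156 CPM by Illumina, so the cluster ran from its most abundant member to the detection floor within its own span.

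The HOXC cluster (chr12:53938831-54056030, plus strand, 117.2 kb) was led by genes of its posterior and central parts. HOXC9 had 8 and 2133 counts (19.8 and 11.1 CPM, 18.1 TPM). HOXC13, a regulator of hair and nail keratin genes, had 4 and 2280 counts (9.92 and 11.9 CPM, 13.7 TPM). HOXC8 had 2 and 2105 counts (4.96 and 10.98 CPM, 12.3 TPM). HOXC6, a gene with several promoters, had 20 and 2488 counts (49.6 and 12.98 CPM, 10.2 TPM), the largest Nanopore count of any member.

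Between HOXC13 and HOXC9 the level dropped. HOXC12 was at 0 in both libraries, HOXC11 had 0 and 794 counts (4.14 CPM by Illumina, 3.44 TPM), and HOXC10 had 0 and 92 (0.548 TPM). At the 3′ end, HOXC5 had 0 and 514 counts (2.68 CPM by Illumina, 4.51 TPM). HOXC4, which is expressed in lymphoid cells and skin, had 10 and 296 counts (24.8 and 1.54 CPM, 1.51 TPM). HOXC4 was thus among the 3 highest members by Nanopore count and 17th of the members by TPM.

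HOXB (chr17:48528526-48728750, minus strand, 200.2 kb) was low, and its signal sat in anterior and central genes. HOXB4, known for expanding blood stem cells, had 0 and 530 counts (2.76 CPM by Illumina, 3.74 TPM). HOXB2 had 0 and 317 counts (1.65 CPM by Illumina, 1.82 TPM). HOXB6 had 1 and 277 counts (2.48 and 1.44 CPM, 1.503 TPM). HOXB3 had 1 and 131 counts (0.249 TPM), while HOXB5 and HOXB9 had 0 by Nanopore and 11 and 18 by Illumina. HOXB1, HOXB7, HOXB8 and HOXB13, the last known for its role in the prostate, were at 0 in both libraries. No HOXB gene reached the level needed for a test.

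HOXD (chr2:176092721-176190907, plus strand, 98.2 kb) had no Nanopore count. By Illumina HOXD12 had 38 counts (0.208 TPM), HOXD13, which patterns digits, had 4, and HOXD10 had 2, under the floor of 3 counts. HOXD1, HOXD3, HOXD4, HOXD8, HOXD9 and HOXD11 were at 0. Every HOXD gene with a count was thus a posterior one, and the highest reached 0.198 CPM.

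By position, the 15 central genes (paralogue groups 4 to 8) summed to 69.7 TPM, the 16 posterior genes (9 to 13) to 58.7 TPM and the 8 anterior genes (1 to 3) to 14.2 TPM. The lead of the central over the posterior genes depends on the length used. In shares of the Illumina HOX counts, central genes held 43.3% and posterior genes 43.5%. In shares of TPM by mean transcript length, they held 45.4% and 44.3%. Group 5 was the highest at 33.2 TPM, of which HOXA5 made up 28.6 TPM, and group 9 followed at 28.9 TPM from HOXC9 and HOXA9. With mean transcript length this order turned round, group 9 holding 24.6% of the HOX TPM and group 5 21.8%. Groups 7 and 12 were lowest, at 0.703 and 0.208 TPM. Paralogues did not share a level. In group 13, HOXC13 had 13.7 TPM while HOXA13 and HOXB13 were at 0 and HOXD13 had 4 Illumina counts. In group 8, HOXC8 had 12.3 TPM and HOXB8 and HOXD8 were at 0. In group 10, HOXA10 had 10.2 TPM, HOXC10 0.548 TPM and HOXD10 2 counts.

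Some steps in the order of levels were smaller than counting error. HOXA9 (10.7 TPM, exact Poisson interval 10.3 to 11.2), HOXC6 (10.2 TPM, 9.77 to 10.6) and HOXA10 (10.2 TPM, 9.78 to 10.6) overlapped, as did HOXA3 (4.92 TPM, 4.68 to 5.18) and HOXC5 (4.51 TPM, 4.13 to 4.91). HOXA5 stood above HOXC9 (17.3 to 18.9 TPM), with an interval of 27.6 to 29.6 TPM. The order also depends on the length used. With the mean length of a gene's transcripts, HOXA5 was still first at 21.8 TPM, but HOXA9 (15.5 TPM) and HOXA10 (11.99 TPM) came next, and HOXC13 and HOXC8 dropped to 6.06 and 5.45 TPM.

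The libraries were then compared gene by gene, as the difference of log2(CPM + 1), Nanopore minus Illumina. The 12414 genes whose CPM averaged 5 or more over the libraries entered an exact conditional binomial test, two-sided, with Benjamini-Hochberg adjustment over all of them. Calls needed an adjusted p under 0.05 and a 4-fold difference or more. Such a test speaks of these libraries and not of the platforms. Of the 39 members 9 were tested: HOXA3, HOXA5, HOXA9, HOXA10, HOXC4, HOXC6, HOXC8, HOXC9 and HOXC13. Of these, 1 (HOXC4) was called higher by Nanopore, beside 12.9% of all tested genes, and 0 were called higher by Illumina, beside 7.31% of all tested genes. At an unadjusted p under 0.05, the same binomial test gave 3 members higher and 0 lower by Nanopore, beside 21.4% and 31.4% of all tested genes. The median ratio of the 9 was 0.28, beside -0.42 over all tested genes. HOXC4 was among the 9 only through its Nanopore value. With a filter of 5 CPM by Illumina alone, 0 members and 3.18% of tested genes were called higher by Nanopore. With so few genes, neither count nor median sets the members apart.

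HOXC4 was 16.1-fold higher by Nanopore (exact interval 7.62 to 29.96), with a log2 ratio of 3.34. Its Nanopore count of 10 stood against 0.622 counts at its Illumina share. HOXC4 passed the filter on mean CPM only through its Nanopore value, so a gene of this kind could be tested only if it differed. For this reason no p-value is given for HOXC4. HOXC6 was 3.82-fold higher by Nanopore (2.33 to 5.92), with a log2 ratio of 1.86. Its adjusted p was 7.24e-06 (Benjamini-Hochberg adjusted exact binomial test). HOXA3 was 3.17-fold higher (1.52 to 5.84), a log2 ratio of 1.55 with an adjusted p of 0.00886 by the exact binomial test. HOXC6 and HOXA3 did not reach 4-fold.

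The other 6 tested genes did not pass the Benjamini-Hochberg adjusted exact binomial test. HOXC9 had a Nanopore to Illumina ratio of 1.78 (0.769 to 3.52), with an adjusted p of 0.268 in the exact test. HOXA5 had a ratio of 1.23 (0.562 to 2.34), with an adjusted p of 0.746 in the exact test. HOXA9 and HOXC13, both with 4 Nanopore counts, had ratios of 0.825 (0.225 to 2.11) and 0.834 (0.227 to 2.14), and an adjusted p of 1 in the exact test. HOXA10 had a ratio of 0.357 (0.0432 to 1.29) and HOXC8 of 0.452 (0.0547 to 1.63), each on 2 Nanopore counts, with adjusted p of 0.259 and 0.489 in the exact test. Their intervals hold both no difference and differences of more than 1.5-fold, so these genes are not shown to be equal between the libraries.

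**Figure D2:**
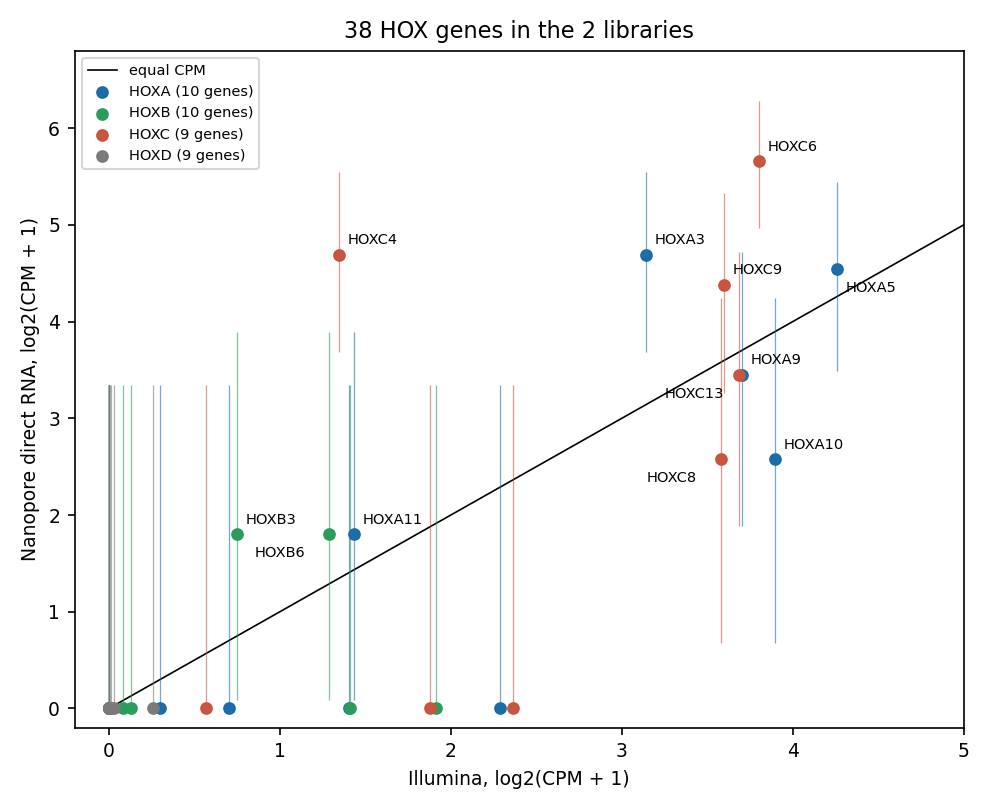
Nanopore against Illumina level of 38 HOX genes, each axis log2(CPM + 1), coloured by cluster, with the line of equal CPM. Vertical bars are 95% exact Poisson intervals of the Nanopore count, and genes with a Nanopore count are named. HOXC4, HOXC6 and HOXA3 lie with their whole bar above the line, and the 26 genes without a Nanopore count lie along the bottom.

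The 3 genes past the adjusted threshold, HOXA3, HOXC4 and HOXC6, were also the 3 tested members whose annotated body contains the whole body of another member. That threshold was passed by 20.2% of all tested genes in the Nanopore direction and by 27.2% in the Illumina direction. Of the 3 members, HOXC4 was tested only through its Nanopore value. HOXA3 (chr7:27106184-27152583) contains HOXA4, HOXA5 and HOXA6. HOXC4 (chr12:54016931-54056030) contains HOXC5, and HOXC6 (chr12:53990624-54030823) contains HOXC9 and HOXC8. HOXB3, HOXB7 and HOXD3 also contain other members but were too low to test. This property was noticed after the ratios were known and was not put to a test.

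For HOXC6 and HOXA3, though not for HOXC4, the Nanopore count was close to a sum over overlapping members. The members summed were picked with the counts known, and a partly overlapping member was added for HOXC6 only. HOXC6 had 20 counts. HOXC9 (8) and HOXC8 (2), wholly inside it, summed to 10, and with HOXC4 (10), which overlaps it in part, the sum was 20. By Illumina the same 3 genes summed to 4534 counts against 2488 for HOXC6. HOXA3 had 10 Nanopore counts, and HOXA4, HOXA5 and HOXA6 inside it summed to 9. By Illumina these 3 summed to 4269 counts against 1502 for HOXA3. HOXC4 had 10 Nanopore counts, while HOXC5 inside it had 0. HOXC6 (20), which overlaps HOXC4 in part, was left out of this comparison. By Illumina HOXC5 had 514 counts against 296 for HOXC4.

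With the 6 containing genes left out, a restriction chosen after seeing the data, 33 members held 32 Nanopore counts, or 79.4 CPM (Wilson interval 56.2 to 112.0). The same members held 20078 Illumina counts, or 105 CPM (103 to 106), so the Nanopore sum went from above the Illumina sum to below it. The Illumina sum still lay within the Nanopore interval. HOXA then held 53.1% and HOXC 43.8% of the Nanopore HOX counts. These shares rest on 32 counts and no interval was calculated, so their order is not established. It also follows from the genes left out, HOXC6 (20 counts) and HOXC4 (10) against HOXA3 (10). How reads over several genes were assigned is not given in the sources used here, and its part in these ratios was not tested.

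The same arrangement was tabulated for all genes, over pairs in which 1 annotated body lies wholly within another and the inner gene had at least 5 Nanopore counts. For 748 pairs on opposite strands, the outer gene had at least the inner gene's count in 97.1% by Nanopore and in 69.8% by Illumina. For 278 pairs on the same strand, these shares were 95.7% and 64.7%. The pairs are not independent, since genes recur among them, and are given as a description. The 278 same-strand pairs include HOX pairs. HOXA3 had at least the count of HOXA5 by Nanopore but not by Illumina. HOXC6 had at least the count of HOXC9 in both libraries.

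Overlap was the rule among members. Of 39 bodies 33 overlapped another annotated gene, and 25 shared exon bases with one, 16 on the same strand and 20 on the opposite strand, some on both. In all 20 of the latter, an lncRNA was the partner or one of the partners, and 25 members had an opposite-strand lncRNA across their body. All 13 members with a Nanopore count overlapped another gene. The 6 that overlapped none (HOXA2, HOXB1, HOXB13, HOXC12, HOXD12 and HOXD13) had no Nanopore count, and by Illumina at most the 315 counts of HOXA2. Long words shared with genes elsewhere were rare: 38 of 39 members shared under 1% of their 50-base words with a gene that does not overlap them, and HOXB7 shared the most, 1.64%. No member had 80% or more of its longest transcript on an alternate contig of hg38.

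**Figure D3:**
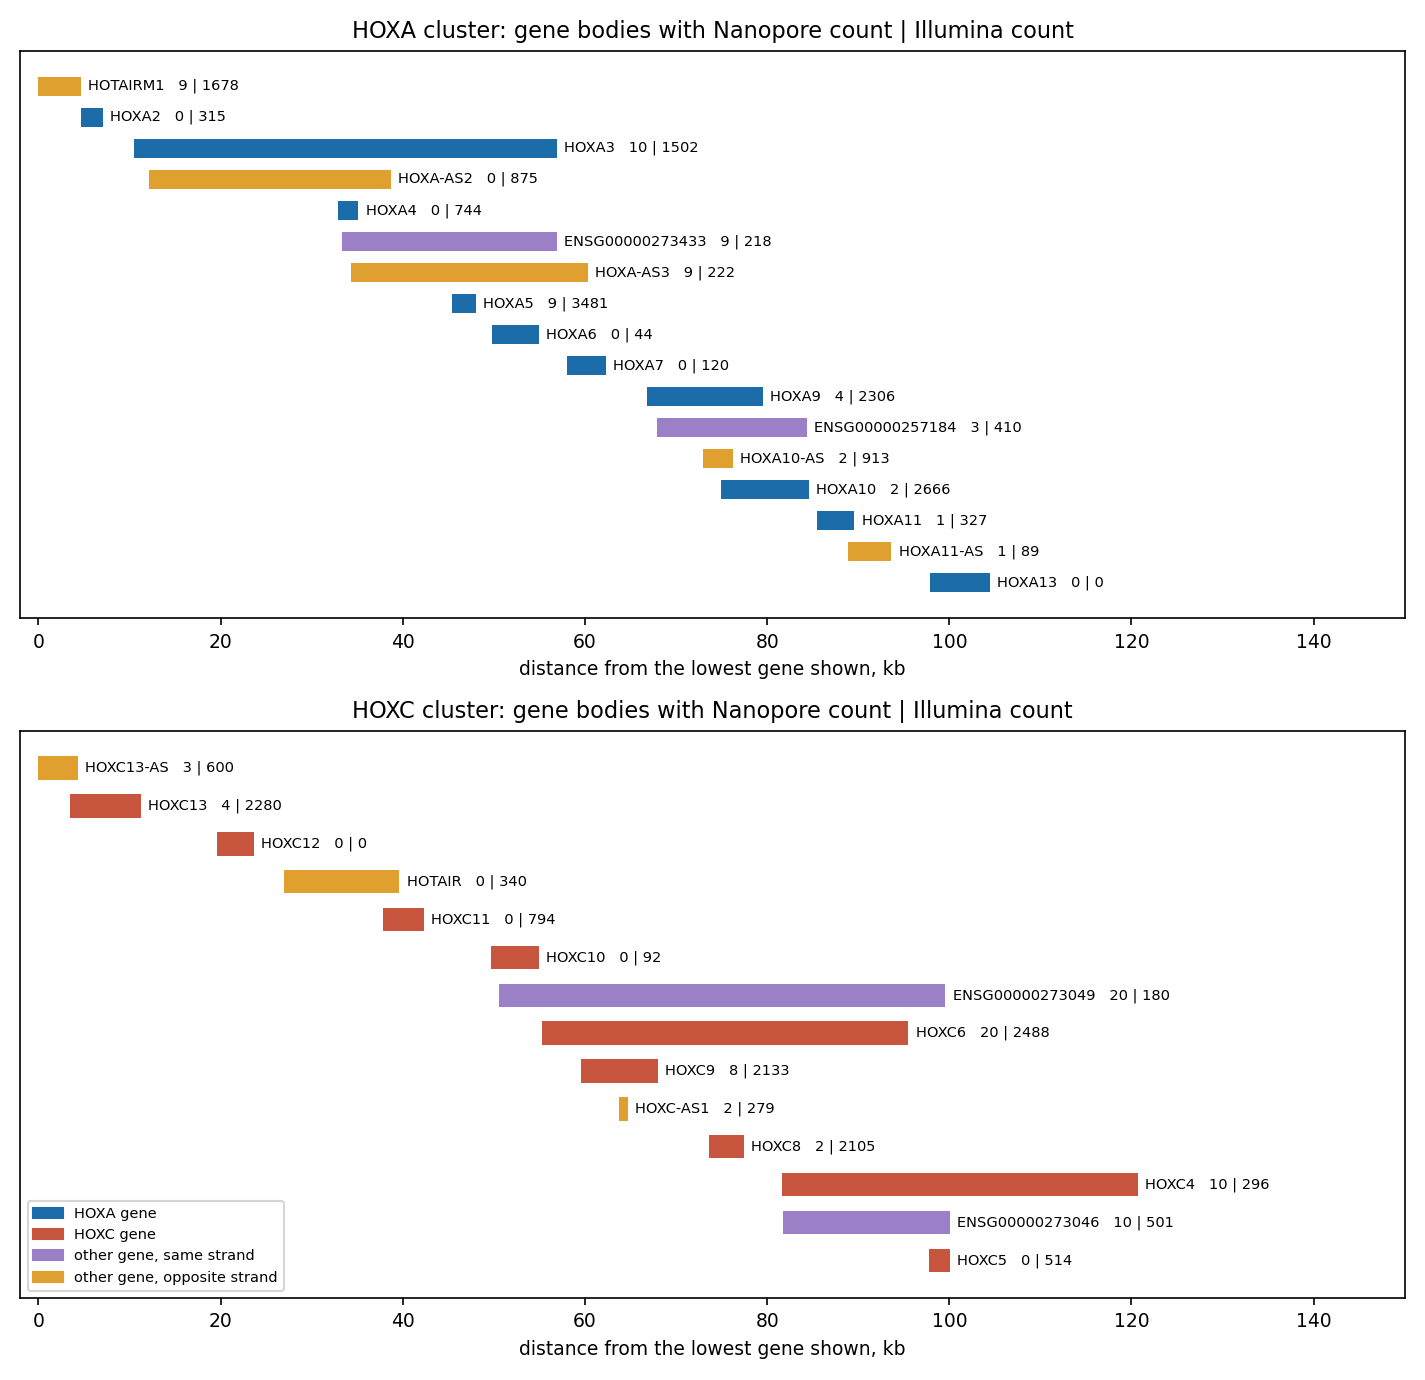
Annotated gene bodies in the HOXA and HOXC clusters, drawn to scale in kb from the lowest gene shown, with each gene's Nanopore and Illumina counts beside its bar. HOX genes are blue (HOXA) or red (HOXC), other genes on their strand purple, and genes on the opposite strand orange. Some overlapping genes carry equal Nanopore counts, such as HOXA-AS3 and HOXA5 with 9 each, and others do not, such as HOXA-AS2 with 0 and HOXA3 with 10.

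In the HOXA cluster, an antisense RNA and a sense RNA had the Nanopore count of HOXA5. HOXA-AS3, an lncRNA on the opposite strand (chr7:27129977-27155928), had 9 Nanopore counts, as did HOXA5, which lies inside it and shares 0 exon bases with it. By Illumina HOXA5 had 3481 counts and HOXA-AS3 222, a ratio of 15.7. The lncRNA ENSG00000273433, on the strand of HOXA5 and also around it with 0 shared exon bases, had 9 and 218 counts. Both RNAs were near 1 CPM by Illumina (1.16 and 1.14) and passed the filter on mean CPM only through their Nanopore values, so no test of them is given.

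HOXA10 and HOXA10-AS, which share 608 exon bases on opposite strands, had 2 Nanopore counts each and 2666 and 913 Illumina counts. HOXA11 and HOXA11-AS share 726 exon bases, and had 1 Nanopore count each and 327 and 89 Illumina counts. HOXA9 and the coding gene ENSG00000257184, which share 397 exon bases on the same strand, had 4 and 3 Nanopore counts and 2306 and 410 Illumina counts. Counts this low are too few to read an equality from, and these pairs are given for completeness. HOXA11-AS was named after its values were seen.

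At the 3′ end of the cluster the pattern differed. HOTAIRM1, an lncRNA known from myeloid cells and transcribed from the opposite strand, had 9 and 1678 counts (15.8 TPM by Illumina). On the log2 scale it was 1.26 higher by Nanopore, with an adjusted p of 0.0449 in the Benjamini-Hochberg adjusted exact binomial test, short of 4-fold. By Illumina TPM it was above every member except HOXA5 and HOXC9. Of the short RNAs annotated within HOTAIRM1, ENSG00000274864, ENSG00000274396 and ENSG00000277694 each repeated its 9 Nanopore counts, with 4, 26 and 72 counts by Illumina. The others, ENSG00000276528 and ENSG00000276771, did not, with 3 and 1 Nanopore counts and 23 and 31 by Illumina. All were named after their values were seen. HOXA-AS2, across HOXA3 and HOXA4, had 0 and 875 counts, so not every gene across HOXA3 repeated its Nanopore count.

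In the HOXC cluster, ENSG00000273049, a coding gene whose body covers HOXC6, HOXC8 and HOXC9 on their strand, had 20 Nanopore counts like HOXC6 and 180 Illumina counts against 2488. The lncRNA ENSG00000273046, inside HOXC4 and on its strand, had 10 Nanopore counts like HOXC4 and 501 Illumina counts against 296. These genes, at 0.939 and 2.61 CPM by Illumina, also passed the filter only through Nanopore, and no test of them is given. ENSG00000273046 shares 1084 exon bases with HOXC5, or 67.3% of the exons of HOXC5, and HOXC5 had 0 Nanopore counts and 514 by Illumina, so reads of these genes cannot be told apart by position alone.

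The antisense RNAs of the HOXC cluster were lower. HOXC13-AS had 3 and 600 counts beside 4 and 2280 for HOXC13, with 172 shared exon bases. HOXC-AS1, within HOXC9, had 2 and 279 counts beside 8 and 2133. HOTAIR, an lncRNA studied for its link to Polycomb and to metastasis, lies across part of HOXC11, and had 0 and 340 counts (1.77 CPM and 1.54 TPM by Illumina) beside 0 and 794. HOTAIR was thus under the Nanopore floor and detected by Illumina only.

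Over all 4 clusters and 10 kb to either side, 30 lncRNA genes were annotated. Of the 21 antisense to their cluster, 8 had a Nanopore and 11 an Illumina count, 28 and 5096 counts in all. Of the 9 on the cluster's own strand, 2 had a Nanopore and 5 an Illumina count, 19 and 853 in all. In HOXD the antisense HAGLR had 1 and 2 counts, and it was the only cluster RNA there with a count, named after its values were seen. All 8 microRNA genes of the clusters were at 0 in both tables, which were made from polyadenylated RNA.

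HOXC4 and HOXC5 have the same RefSeq promoter window (GRCh38.p14, chr12:54016638-54016937, plus strand, 300 bases around the start), which is shown because RefSeq places a start of both genes there. In GENCODE 44 the body of HOXC5 begins downstream of it, at chr12:54033050-54035361, so the window need not be the start of the transcripts counted as HOXC5.

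HOXC4 and HOXC5: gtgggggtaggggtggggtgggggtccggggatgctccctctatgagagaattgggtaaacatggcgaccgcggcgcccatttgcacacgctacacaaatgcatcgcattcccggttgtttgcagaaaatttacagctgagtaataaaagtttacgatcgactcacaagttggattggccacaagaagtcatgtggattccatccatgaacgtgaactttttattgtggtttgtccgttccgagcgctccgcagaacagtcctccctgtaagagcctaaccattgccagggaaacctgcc

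Windows were matched for 20 of the 39 members, 26 distinct windows of 300 bases. HOXA3 had the most of them and HOXA10 also had more than 1, so members do not weigh equally in the values below. HOXA5, HOXC6, HOXC8, HOXC9, HOXC13 and every HOXB gene but HOXB1 had none, so the windows do not stand for the abundant members. The median number of CpG dinucleotides per window was 22.5, beside 14 over all 34943 windows of the table. The E-box CAGGTG, which reads as CACCTG on the other strand and is a motif that Snail proteins are known to bind, was found in 1 of the 26 windows, that of HOXA7, and in 20.6% of all windows. It is printed with the motif in capitals (chr7:27156626-27156925, minus strand). HOXA7 had 0 and 120 counts. A match is a description of these letters and not a measured site.

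HOXA7: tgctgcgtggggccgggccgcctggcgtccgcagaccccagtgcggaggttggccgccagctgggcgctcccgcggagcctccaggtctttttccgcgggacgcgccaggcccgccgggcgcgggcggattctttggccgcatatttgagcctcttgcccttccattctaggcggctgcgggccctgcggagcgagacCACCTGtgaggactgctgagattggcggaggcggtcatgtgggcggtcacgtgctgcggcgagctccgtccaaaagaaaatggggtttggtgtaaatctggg

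The clusters also encode microRNAs, short RNAs that repress transcripts through pairing of their seed (bases 2 to 8, in capitals) with 3′ untranslated regions (UTRs). The miR-196 family, encoded in HOXA, HOXB and HOXC, is known to target HOX transcripts. Its members share 1 seed, and they are shown with miR-10a of the HOXB cluster, whose seed differs (mature sequences from RefSeq, GRCh38.p14).

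hsa-miR-196a-5p: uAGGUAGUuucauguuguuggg

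hsa-miR-196b-5p: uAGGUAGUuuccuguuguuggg

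hsa-miR-10a-5p: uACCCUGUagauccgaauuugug

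The match to the miR-196 seed, ACTACCT, occurred 14 times in the 3′ UTRs of 8 members (HOXA5, HOXA7, HOXA9, HOXB1, HOXB6, HOXB7, HOXB13 and HOXC8), on the transcript strand. That is 0.319 per kb of member UTR, beside 0.0437 per kb over 19550 coding transcripts. The match to the miR-10a-5p seed, ACAGGGT, occurred 3 times, HOXA3 and HOXB3 included, or 0.0684 per kb beside 0.0880. HOXA7 had 4 of the miR-196 matches and HOXC8 3. Of the 8 members with a match, 5 had Illumina counts, among them HOXA5, the most abundant member, and HOXB1, HOXB7 and HOXB13 were at 0. Sites in the abundant members and 1 in HOXA7 are shown as DNA with the seed match in capitals, each on the strand of its gene: HOXA5 at chr7:27141387-27141408, HOXA9 at chr7:27163254-27163275, HOXC8 at chr12:54011495-54011516 and HOXA7 at chr7:27154430-27154451.

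HOXA5: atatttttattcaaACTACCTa

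HOXA9: acaaaaggaaagaaACTACCTt

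HOXC8: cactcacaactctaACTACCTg

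HOXA7: cctactcccctaaaACTACCTa

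Genes that work with or on HOX genes were mostly detected in both libraries, and those called 4-fold different were higher by Illumina, as were 7.31% of all tested genes. Every tested gene of the lists below was above 5 CPM by Illumina. With a filter of 5 CPM by Illumina alone, 3.18% of tested genes were called higher by Nanopore and 7.79% by Illumina. The median log2 ratio over all tested genes was then -0.65. These values are the closer comparison for the lists. Of 11 genes for TALE homeodomain proteins, the DNA-binding partners of HOX factors, 9 had a Nanopore count and 7 were tested, with a median log2 ratio of -0.63 (-0.42 over all tested genes). PBX2 had 1 and 13189 counts (log2 ratio -4.33, adjusted p 4.11e-10 in the exact binomial test) and TGIF2 had 1 and 4486 (-2.81, adjusted p 0.00495 in the exact binomial test). Both were called higher by Illumina. TGIF1 had 11 and 8187 counts and was not called. PBX2 has 99.9% of its longest transcript on an alternate contig of hg38, and TGIF2 45.2%. The counts of both genes are therefore uncertain in each library, and the part of such contigs was not tested.

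Of 24 Polycomb genes, which keep HOX genes silent, 23 were tested, with a median log2 ratio of -0.83. Of the 23, 0 were called higher by Nanopore and 4 by Illumina, beside 12.9% and 7.31% of all tested genes. With the filter on Illumina alone, these shares of all tested genes were 3.18% and 7.79%. At an adjusted p under 0.05 in the exact binomial test, whatever the fold, 2 were higher by Nanopore and 11 by Illumina. Of all tested genes, 20.2% and 27.2% passed that threshold in these directions. PHC1 (22 and 5789 counts), named after its values were seen, was among those higher by Nanopore. EZH2, the methyltransferase, had 2 and 10717 counts (log2 ratio -3.25, adjusted p 5.38e-07 in the exact binomial test). CBX6 (1 and 4350 counts), PHF1 (1 and 4053) and JARID2 (2 and 5742) were the others called, and PHF1 has 99.8% of its transcript on an alternate contig. RBBP7 and RBBP4, with the most Illumina counts of the list, had 64 and 45823, and 29 and 30183 counts. The 14 Trithorax and MLL genes, which keep HOX genes active, had a median of -1.29. Of them, 0 were called higher by Nanopore and 2 by Illumina, beside 12.9% and 7.31% of all tested genes. The 2 were KMT2D (2 and 8695 counts) and HCFC1 (4 and 14489), while DPY30 (30 and 16267) and PSIP1 (22 and 15589) were not called. The calls and medians of the lists rest on CPM, which takes no account of transcript length. As Illumina TPM by union exonic length, KMT2D was at 4.83 and HCFC1 at 22.7, beside 4.96 and 9.92 CPM by Nanopore. With that TPM the median log2 ratio over all tested genes was 0.40 in place of -0.42.

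Of 15 genes for upstream regulators and retinoid signalling, 7 were tested, with a median log2 ratio of -0.98. Of the 7, 0 were called higher by Nanopore and 1 by Illumina, beside 12.9% and 7.31% of all tested genes. RXRB, a retinoid X receptor, had 0 and 7990 counts (41.7 CPM by Illumina, above the Nanopore floor of 7.44 CPM), and 99.9% of its longest transcript is also on an alternate contig. RAD21, a cohesin subunit, had 84 and 55584 counts, and RARG, a retinoic acid receptor, 13 and 12420. Of 6 genes for homeobox factors linked to or derived from the same ancestral cluster, none had a Nanopore count, and by Illumina MNX1 had 87 counts and GSX2 had 3.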

How the data were processed

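Per the labels, 1 Nanopore direct RNA and 1 Illumina TruSeq stranded mRNA library were made from matched polyadenylated RNA, and each library formed a group. The authors deposited whole-number counts per Ensembl gene without normalization. The submitters' processing notes name minimap2 2.11-r797, HISAT2 2.1.0, featureCounts and hg38, with no role or order. Strand setting, annotation release and the treatment of reads over several genes or places are not given in the sources used here, and reads of overlapping or antisense genes may be split or shared.

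Counts were divided by library totals (403235 and 191741714) to give CPM. Genes averaging at least 5 CPM were compared with an exact conditional binomial test (scipy 1.17.1, Python 3.11.15), since without replicates no quasi-likelihood fit is possible, with Benjamini-Hochberg adjustment over all tested genes. The procedure was tested on simulated data with 200 genes changed 8-fold. It called 100 raised, 86 lowered and 3 unchanged genes, and missed lowered genes of up to 60.4 CPM. The genes changed were all above the Illumina CPM of HOXA5, so the simulation did not cover the range of the members. Intervals are 95%, exact Poisson for levels of genes, exact binomial for Nanopore to Illumina ratios and Wilson for shares. GENCODE 44 gave names, positions, strands and lengths, and 58207 of 58735 identifiers matched. Illumina TPM used union exonic length. Overlaps were found by gene body and by exon, shared 50-base words with blastn 2.17.0 and alternate contigs with minimap2 2.31. Named are members with at least 1 CPM by Illumina or 3 Nanopore counts, other genes of the clusters with at least 5 Nanopore counts or 1 CPM, and list genes past the call rule or with the most Illumina counts of a list. The members and lists were chosen with earlier results of these data known. Of the members, 1 enters the sums and counts but is not reported here by itself.

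Alternatives were other count minimums and filters, pseudocounts of 0.1 and 5 CPM, TMM (edgeR 4.0.16, R 4.3.3), median-ratio scaling, TPM by 2 lengths, and leaving out genes with exon overlap or the most abundant member. Leaving out members that contain another member was added after seeing the data.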

Additional observations from a re-analysis of the deposited data

How the results depend on the processing

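No paired analysis was possible because each platform has 1 library. The labels give no replicate numbers, and the tags heading the count columns, 1 of which ends in a replicate number, are explained by no label. With at least 3 or at least 10 counts, 7 and 3 members were detected by Nanopore. No member was called higher by Illumina under any setting tried, but at its Illumina share even HOXA5 would have given 7.32 Nanopore counts, so at this depth only large differences could be seen in that direction. Members called higher by Nanopore numbered 0 with a mean CPM of 20 or more, with Illumina of at least 5 CPM alone, with exon-overlapping genes left out and with containing members left out, in each case because HOXC4 was no longer tested. They numbered 3 (HOXA3, HOXC4 and HOXC6) with Illumina TPM by union exonic or by mean transcript length, and 1 under the other settings. The median log2 ratio of tested members was -0.24 with a mean of at least 1 CPM or Illumina alone of at least 5 CPM, -0.10 with TPM by union length, -0.36 with exon overlap left out and -0.25 with containing members left out, so its sign depends on the setting. TMM and median-ratio scaling shifted the log2 ratio of scaled counts by 0.09 and 0.13, moved the median ratio of tested members to 0.37 and 0.41, and changed no call of a member. The Nanopore share of all counts in HOX genes, 0.0181%, became 0.00273% without members with exon overlap, 0.0131% without the most abundant member and 0.00794% without containing members. The Illumina share, 0.0128%, became 0.00352%, 0.0110% and 0.0105% in the same order, and 0.0143% and 0.0109% as TPM by union and mean transcript length. Without containing members, the Nanopore shares of HOXA and HOXC became 53.1% and 43.8%, and the Illumina shares of HOXA, HOXB and HOXC 54.6%, 5.74% and 39.4%. As TPM by union length, HOXA and HOXC took 49.5% and 45.0% of the Illumina HOX signal, and by mean transcript length 58.0% and 36.7%. Depth limits the Nanopore values, since 6 of the 13 members seen there have 1 or 2 counts.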
